A study of Mus musculus with 8 samples.

Results

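The transcripts of p53 and of genes that p53 activates were followed in a mouse tumor cell line with and without a CRISPR guide against *Trp53*. The set holds 38 genes, chosen by name: *Trp53* itself, the inhibitors *Mdm2* and *Mdm4*, and 35 genes known as p53 targets or paralogs of one. The choice was made with earlier results of these data known. All 38 are rows of the count table, which lists 50600 genes. A count of 10 or more in 2 or more of the 8 libraries was asked of a gene before testing, which 37 of the 38 met, as did 14497 genes of the table. The remaining one, *Perp*, which encodes a desmosome protein linked to cell death, had 0 counts in every library.

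NF1-MET cells were isolated from a malignant peripheral nerve sheath tumor (MPNST) of a mouse that was fl/ko for *Nf1*, carried a MET transgene behind a stop cassette (lox-stop-loxMET, tg/+), and carried Plp-creERT (tg/+). The line carries a *Met* amplification and wild-type *Trp53*. NF1-MET;sgP53 cells were made from it with a lentivirus carrying Cas9 and a guide to exon 4 of *Trp53* and were selected with puromycin, and no picking of single clones is described. Cells of both lines were kept for 24 h in vehicle (DMSO) or in 100 nM capmatinib, an inhibitor of the MET kinase, with 2 replicate wells in each of the 4 groups. The *Nf1* and MET alleles are shared by all 4 groups, and NF1-MET with vehicle has neither the guide nor the drug in its label. Each genotype is 1 line, so the guide and any other difference between the lines cannot be told apart. The study also describes a control line with the empty vector, and the columns of the NF1-MET libraries in the count table have names that begin with SEV, but whether they were made from that control is not stated in the sources used here.

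The p53 protein is a transcription factor that is kept low in unstressed cells, because MDM2 marks it for degradation and both MDM2 and MDM4 block its activity. When DNA damage, oncogene signaling or ribosome stress releases it, p53 binds paired decamers in promoters and introns and raises genes of growth arrest, cell death, DNA repair and metabolism, *Mdm2* among them, which closes a feedback loop. Loss of p53 is frequent in MPNSTs, the sarcomas of the Schwann cell lineage that arise in neurofibromatosis type 1.

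Libraries held 30116810 to 42781371 counts. Replicates of a group differed by more than counting error alone, with a median chi-square over genes of 1.54 to 1.78 times its null value, so no library repeated another. *Gm42418*, a transcript that overlaps ribosomal RNA, took 1.11% to 13.1% of the counts of a library, and leaving it out before scaling changed no call of a member in the comparisons of 2 groups and 3 calls in the test of whether the lines responded differently (*Phlda3* lost, *Pmaip1* and *Trp53inp2* gained). Of 15 Schwann lineage markers, 10 passed the count filter, and their summed level was 5292 to 6381 CPM (counts per unit of library size, with TMM factors over the 8 libraries), most of it from *Vim*. The defining markers *Sox10* and *S100b* were at or below 0.492 CPM in every library. Of 11 markers of other cell types, 2 passed the filter, *Pdgfrb* at 178 to 474 CPM and *Krt8* at no more than 0.577 CPM, and *Adgre1*, *Cd3e* and *Myod1* had 0 counts throughout. RNA came from whole wells, and fewer cells of a kind cannot be told apart from less RNA per cell.

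Promoters of the members were searched for the p53 consensus decamer, since the members are grouped as targets of that factor. Windows from 250 bases before to 50 after a gene's start were taken from RefSeq on build GRCm38.p6, where 29 of the 38 members had at least 1 of 36 windows. Windows for *Rrm2b*, *Ptprv*, *Xpc*, *Tnfrsf10b*, *Perp*, *Zmat3*, *Trp53inp1*, *Pmaip1* and *Ddb2* were not analysed here. The decamer reads the same on both strands, so 1 pass covers both. An exact decamer occurred in the windows of 12 members, *Aen*, *Ccng1*, *Ckap2*, *Ei24*, *Gadd45a*, *Ier5*, *Mdm2*, *Pml*, *Polk*, *Rps27l*, *Sesn1* and *Trp53*, and in 8.36% of all 32851 windows. Members are counted here as genes, whereas the shares are of windows, of which a gene can have several. A pair of adjacent decamers with at most 1 mismatch in all occurred in *Ccng1* and *Rps27l* and in 0.0639% of all windows, and with at most 2 mismatches also in *Ckap2* (0.314% of all windows). With up to 13 bases between the decamers, *Pml* had a pair with 1 mismatch (0.627% of all windows) and *Sesn1* and *Gadd45a* had pairs with 2 (4.09%).

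The pairs are shown with 15 bases on each side, in the direction of the gene, for *Ccng1* (chr11:40755447-40755496, minus strand), *Rps27l* (chr9:66946281-66946330, plus strand), *Ckap2* (chr8:22185988-22186037, minus strand), *Pml* (chr9:58249906-58249962, minus strand) and *Sesn1* (chr10:41887238-41887290, plus strand). The single decamers before *Mdm2* (chr10:117710920-117710959, minus strand) and *Trp53* (chr11:69580269-69580308, plus strand) follow, because both genes set the level of p53 itself. Capitals mark the decamers, and none of these stretches lies in an annotated exon of its gene.
Ccng1: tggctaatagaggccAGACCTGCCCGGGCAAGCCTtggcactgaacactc
Rps27l: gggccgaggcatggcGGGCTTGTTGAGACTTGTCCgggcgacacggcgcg
Ckap2: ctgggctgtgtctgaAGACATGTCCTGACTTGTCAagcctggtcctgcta
Pml: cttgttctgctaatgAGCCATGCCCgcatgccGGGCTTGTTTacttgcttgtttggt
Sesn1: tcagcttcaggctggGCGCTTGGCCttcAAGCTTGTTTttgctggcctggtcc
Mdm2: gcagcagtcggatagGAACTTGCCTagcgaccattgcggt
Trp53: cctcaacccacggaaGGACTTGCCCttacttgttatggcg

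Per kilobase of exon, the members spanned a wide range in NF1-MET cells with vehicle. *Rps27l*, a paralog of a ribosomal protein gene, stood highest at 123 CPM per kb, although reads of near-identical copies may have been split or shared in the counting. *Ephx1* (51.3 CPM per kb), *Ccng1* (50.1 CPM per kb), *Trp53* (46.4 CPM per kb) and *Phlda3* (37.7 CPM per kb) followed. *Mdm2*, at 20.6 CPM per kb, lay above *Mdm4*, at 5.49 CPM per kb. The lowest of the 37 were *Ddb2* (0.442 CPM per kb), *Fas* (0.225 CPM per kb) and *Ptprv* (0.0134 CPM per kb), whose counts were few.

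**Figure D1:**
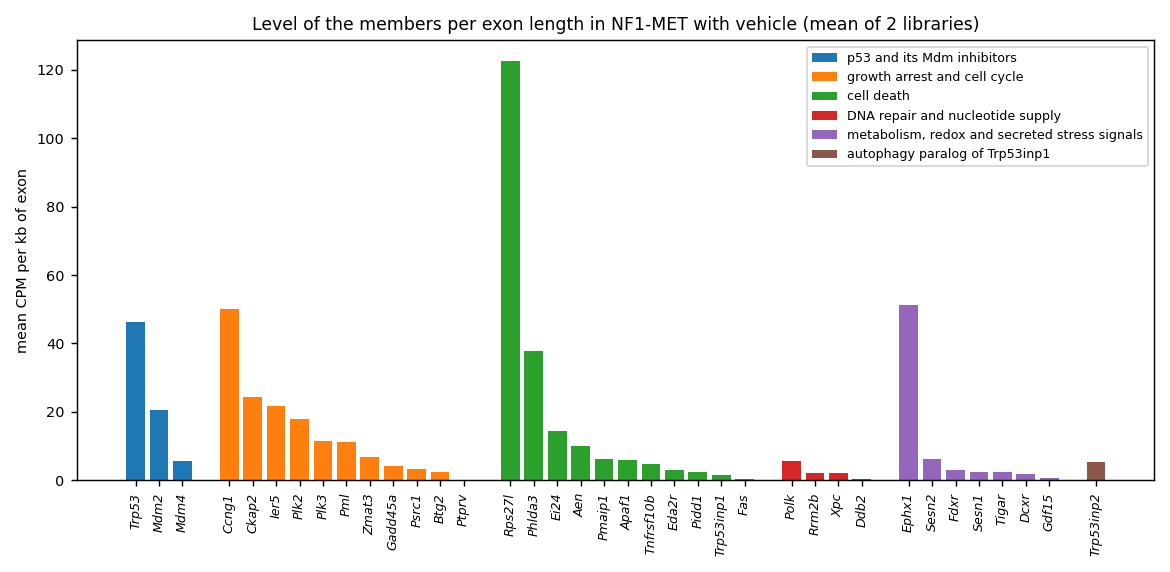
Mean level of each member in NF1-MET cells with vehicle (2 libraries), in CPM per kilobase of exon, with the bars colored by role. *Rps27l* stands at 123 CPM per kb, and *Ephx1*, *Ccng1* and *Trp53* lie between 46.4 and 51.3 CPM per kb.

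The first question was how the set differed between the lines without drug. In vehicle, 20 of the 37 members were lower in NF1-MET;sgP53 than in NF1-MET cells and 3 were higher at an adjusted p under 0.05, and 14 passed in neither direction. Over all 14484 genes tested, 12.3% were lower and 10.9% were higher. The members' median log2 fold change was -0.16, beside 0.0024 for all genes. All 3 genes of the p53 and Mdm group were lower, as were 6 of 11 cell death genes, 5 of 11 growth arrest genes, 3 of 7 metabolic and secreted genes, 2 of 4 repair genes and *Trp53inp2*. Scaling by library totals moved the median of all genes up by 0.06, and 13 members were then lower and 3 higher, against 5.13% and 8.84% of all genes. DESeq2's Wald test also called 13 lower, against 7.59% of all genes. Markers moved between the lines in vehicle too: *Pdgfrb* was at 178 to 184 CPM in the parental line and 232 to 238 in the line with the guide, *Sox2* at 151 to 154 and 98.5 to 101, and *Sox9* at 64.1 to 66.0 and 49.4 to 51.3. Like *Pdgfrb*, the markers that follow were higher in the line with the guide: *Gap43* was at 18.1 to 18.8 and 21.4 to 21.7 CPM, *Nes* at 427 to 428 and 452 to 473, and *Egr2* at 15.1 to 17.1 and 18.3 to 19.4. The summed level of the Schwann list was 6369 to 6381 CPM and 5806 to 5824 CPM. The part of these markers in the line difference was not tested.

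*Trp53* (ENSMUSG00000059552, chr11:69580359-69591873 on GRCm38, the build of all coordinates here), the gene the guide targets, was at 182 and 193 CPM for NF1-MET given vehicle, 126 and 128 given capmatinib, 97.5 and 100.1 for NF1-MET;sgP53 given vehicle and 68.0 and 68.8 given capmatinib. The 4 groups did not overlap, and every NF1-MET;sgP53 library lay below every NF1-MET library. The difference between the lines was a log2 fold change of -0.94 ± 0.033 (SE, n = 2 per group) in vehicle (edgeR adjusted p = 2.48e-14). In capmatinib it was -0.89 ± 0.029 (edgeR adjusted p = 4.78e-13). Transcripts with a small insertion or deletion in exon 4 are counted like intact ones, so these counts do not measure the protein. The study reports, from a western blot, diminished p53 protein in NF1-MET;sgP53 cells. No exon of *Trp53* overlaps a neighbor, and *Wrap53*, the gene that lies head to head with it, did not pass the test between the lines (log2 fold change 0.15 ± 0.080 in vehicle and 0.087 ± 0.10 in capmatinib).

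*Mdm2* (chr10:117688875-117710758), the ubiquitin ligase that p53 both induces and is degraded by, was at 106 and 104 CPM for NF1-MET given vehicle, 79.5 and 82.1 given capmatinib, 76.6 and 75.2 for NF1-MET;sgP53 given vehicle and 73.0 and 71.8 given capmatinib. NF1-MET with vehicle stood above the other 3 groups, which ranged from 71.8 to 82.1 CPM. The line difference was -0.48 ± 0.032 on the log2 scale in vehicle (edgeR adjusted p = 4.22e-10) and -0.16 ± 0.032 in capmatinib (edgeR adjusted p = 0.00248), where the call was lost with library totals and with DESeq2. *Mdm4*, the paralog that holds p53 inactive without a ligase activity of its own, was at 82.3 and 80.2 CPM for NF1-MET given vehicle, 86.4 and 89.4 given capmatinib, 73.5 and 77.7 for NF1-MET;sgP53 given vehicle and 80.4 and 73.8 given capmatinib. Its groups in vehicle did not overlap, but the log2 difference of -0.12 ± 0.034 (edgeR adjusted p = 0.0136) was not called with library totals, by DESeq2, with all 8 libraries in 1 model, or without NF1-MET vehicle replicate 1 (-0.10) or NF1-MET;sgP53 vehicle replicate 1 (-0.082). In capmatinib *Mdm4* was lower by a log2 difference of -0.19 ± 0.038 (edgeR adjusted p = 0.00199), a call that library totals removed.

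Among the cell death genes, *Eda2r* (chrX:97333840-97377216), a receptor of the TNF family for ectodysplasin, showed the largest fall of the set. It was at 17.4 and 17.3 CPM for NF1-MET given vehicle, 7.63 and 7.68 given capmatinib, 4.22 and 4.63 for NF1-MET;sgP53 given vehicle and 1.96 and 1.85 given capmatinib. Each group lay apart from the others, and the log2 line difference was -1.99 ± 0.087 in vehicle (edgeR adjusted p = 1.11e-12) and -2.01 ± 0.13 in capmatinib (edgeR adjusted p = 1.22e-08). *Trp53inp1* (chr4:11156431-11174379), a nuclear stress protein that helps p53 toward cell death and also acts in autophagy, was at 11.2 and 10.4 CPM for NF1-MET given vehicle, 28.2 and 28.5 given capmatinib, 2.82 and 3.11 for NF1-MET;sgP53 given vehicle and 21.6 and 20.7 given capmatinib. It was lower without drug than with drug in both lines, and lower in NF1-MET;sgP53 than in NF1-MET under either treatment. The log2 line difference was -1.87 ± 0.11 in vehicle (edgeR adjusted p = 7.97e-11) and -0.42 ± 0.055 in capmatinib (edgeR adjusted p = 3.62e-05), the latter not called with library totals.

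*Phlda3*, a small protein that competes with AKT for membrane lipids, was at 58.5 and 59.2 CPM for NF1-MET given vehicle, 65.8 and 62.9 given capmatinib, 43.8 and 42.5 for NF1-MET;sgP53 given vehicle and 40.1 and 41.5 given capmatinib. All 4 NF1-MET;sgP53 libraries lay below all 4 NF1-MET libraries, with log2 differences of -0.47 ± 0.039 in vehicle and -0.65 ± 0.041 in capmatinib (edgeR adjusted p = 1.45e-08 and 4.55e-09). Other falls in vehicle were those of *Pidd1*, the core of the PIDDosome that activates caspase-2 (-0.47 ± 0.096), *Pmaip1*, which encodes the BH3-only protein NOXA (-0.37 ± 0.075), and *Ei24* (-0.25 ± 0.034). None of these 3 passed the test in capmatinib, where their log2 differences were -0.40, 0.0022 and -0.12. *Apaf1*, the scaffold of the apoptosome, was higher in NF1-MET;sgP53 by 0.19 ± 0.037 in vehicle. *Aen*, *Tnfrsf10b*, *Rps27l* and *Fas* did not pass in vehicle, with log2 differences of -0.12, -0.072, -0.025 and 0.52, the last at no more than 0.819 CPM.

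Of the growth arrest genes, *Ccng1* (chr11:40748552-40755311), which encodes cyclin G1, a partner of phosphatase 2A that acts on MDM2, was at 178 and 174 CPM for NF1-MET given vehicle, 145 and 143 given capmatinib, 75.8 and 79.4 for NF1-MET;sgP53 given vehicle and 81.6 and 86.2 given capmatinib. NF1-MET;sgP53 libraries were far below NF1-MET libraries in both treatments. The log2 difference was -1.20 ± 0.032 in vehicle (edgeR adjusted p = 5.07e-16) and -0.78 ± 0.033 in capmatinib (edgeR adjusted p = 2.56e-11). *Psrc1*, a spindle protein, was at 10.8 and 10.5 CPM for NF1-MET given vehicle, 8.06 and 8.10 given capmatinib, 4.66 and 4.96 for NF1-MET;sgP53 given vehicle and 4.43 and 4.27 given capmatinib. The 2 lines were separated under both treatments, by -1.16 ± 0.095 in vehicle and -0.89 ± 0.11 in capmatinib on the log2 scale (edgeR adjusted p = 1.45e-08 and 1.47e-05). *Zmat3*, an RNA-binding protein that regulates splicing and mRNA decay, was at 79.4 and 77.6 CPM for NF1-MET given vehicle, 78.1 and 78.4 given capmatinib, 56.6 and 54.3 for NF1-MET;sgP53 given vehicle and 55.0 and 53.3 given capmatinib. NF1-MET;sgP53 libraries lay below NF1-MET libraries in both treatments, with log2 differences of -0.52 ± 0.034 and -0.53 ± 0.035 (edgeR adjusted p = 4.67e-10 and 9.82e-09).

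*Plk2* (chr13:110395046-110400844), a polo-like kinase of the early cell cycle, went the other way in vehicle. It was at 77.9 and 84.1 CPM for NF1-MET given vehicle, 194 and 186 given capmatinib, 138 and 137 for NF1-MET;sgP53 given vehicle and 187 and 179.8 given capmatinib. Without drug the NF1-MET;sgP53 libraries were higher, and with drug the groups overlapped. The log2 line difference was 0.74 ± 0.035 in vehicle (edgeR adjusted p = 3.98e-12) and -0.052 ± 0.032 in capmatinib (edgeR adjusted p = 0.367). *Plk3* and *Ckap2* were lower in vehicle by small amounts (-0.21 ± 0.059 and -0.098 ± 0.031), calls that library totals and DESeq2 both removed. *Ckap2* was also not called without the count filter, with all 8 libraries in 1 model, or with any of the 4 libraries left out (-0.11 to -0.088). *Plk3* was also not called without NF1-MET vehicle replicate 2 (-0.20) or NF1-MET;sgP53 vehicle replicate 1 (-0.13). *Btg2*, *Pml*, *Ier5*, *Gadd45a* and *Ptprv* did not pass in vehicle, with log2 differences of 0.038, 0.091, 0.11, 0.18 and 1.45, where *Ptprv* had between 2 and 21 counts in a library.

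Among genes of metabolism, *Ephx1* (chr1:180976210-181020904), the microsomal epoxide hydrolase, was at 101 and 99.0 CPM for NF1-MET given vehicle, 132 and 128 given capmatinib, 39.2 and 39.6 for NF1-MET;sgP53 given vehicle and 68.3 and 68.2 given capmatinib. No groups overlapped, and NF1-MET;sgP53 was lower under either treatment. The log2 difference was -1.36 ± 0.033 in vehicle (edgeR adjusted p = 1.25e-16) and -0.93 ± 0.030 in capmatinib (edgeR adjusted p = 4.73e-13). Exons of another gene on the same strand, *Gm36961*, cover 3.69% of its exon length. *Dcxr*, a xylulose reductase, was at 2.20 and 1.93 CPM for NF1-MET given vehicle, 5.20 and 5.83 given capmatinib, 1.40 and 1.40 for NF1-MET;sgP53 given vehicle and 4.60 and 4.55 given capmatinib. Its groups in vehicle did not overlap, but the log2 difference of -0.58 ± 0.21 (edgeR adjusted p = 0.049) was at the threshold and was not called with library totals, by DESeq2, without the count filter, or with any of the 4 libraries left out (-0.67 to -0.48). *Sesn2*, a leucine sensor that restrains mTORC1, was lower by -0.19 ± 0.060, and *Tigar*, which lowers fructose-2,6-bisphosphate, was higher by 0.27 ± 0.084. *Sesn2* was not called with library totals, by DESeq2, or with any of the 4 libraries left out (-0.22 to -0.16). *Tigar* was not called by DESeq2 or without NF1-MET vehicle replicate 1 (0.25), NF1-MET vehicle replicate 2 (0.30) or NF1-MET;sgP53 vehicle replicate 2 (0.25). *Sesn1*, *Fdxr* and *Gdf15* did not pass (0.19, 0.027 and 0.18).

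The repair genes showed small differences. *Polk*, a translesion DNA polymerase, and *Xpc*, the damage sensor of nucleotide excision repair, were lower in vehicle by log2 differences of -0.29 ± 0.067 and -0.23 ± 0.080 (edgeR adjusted p = 0.00289 and 0.0482). *Polk* was not called without NF1-MET vehicle replicate 1 (-0.21), and *Xpc* was not called with library totals, by DESeq2, without the count filter, with all 8 libraries in 1 model, or with any of the 4 libraries left out (-0.26 to -0.20). *Ddb2*, whose exons are covered over 23.8% of their length by *Acp2* on the other strand, and *Rrm2b*, a subunit of ribonucleotide reductase, did not pass (-0.34 and 0.0081). *Trp53inp2*, the paralog of *Trp53inp1* that acts in autophagy, was lower by -0.16 ± 0.053, which was not called with library totals, by DESeq2, without the count filter, or with any of the 4 libraries left out (-0.18 to -0.14). Of the 20 members lower in vehicle, 12 kept the call under every alternative, including each left-out library: *Trp53*, *Mdm2*, *Ccng1*, *Zmat3*, *Psrc1*, *Pmaip1*, *Pidd1*, *Eda2r*, *Ei24*, *Phlda3*, *Trp53inp1* and *Ephx1*.

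**Figure D2:**
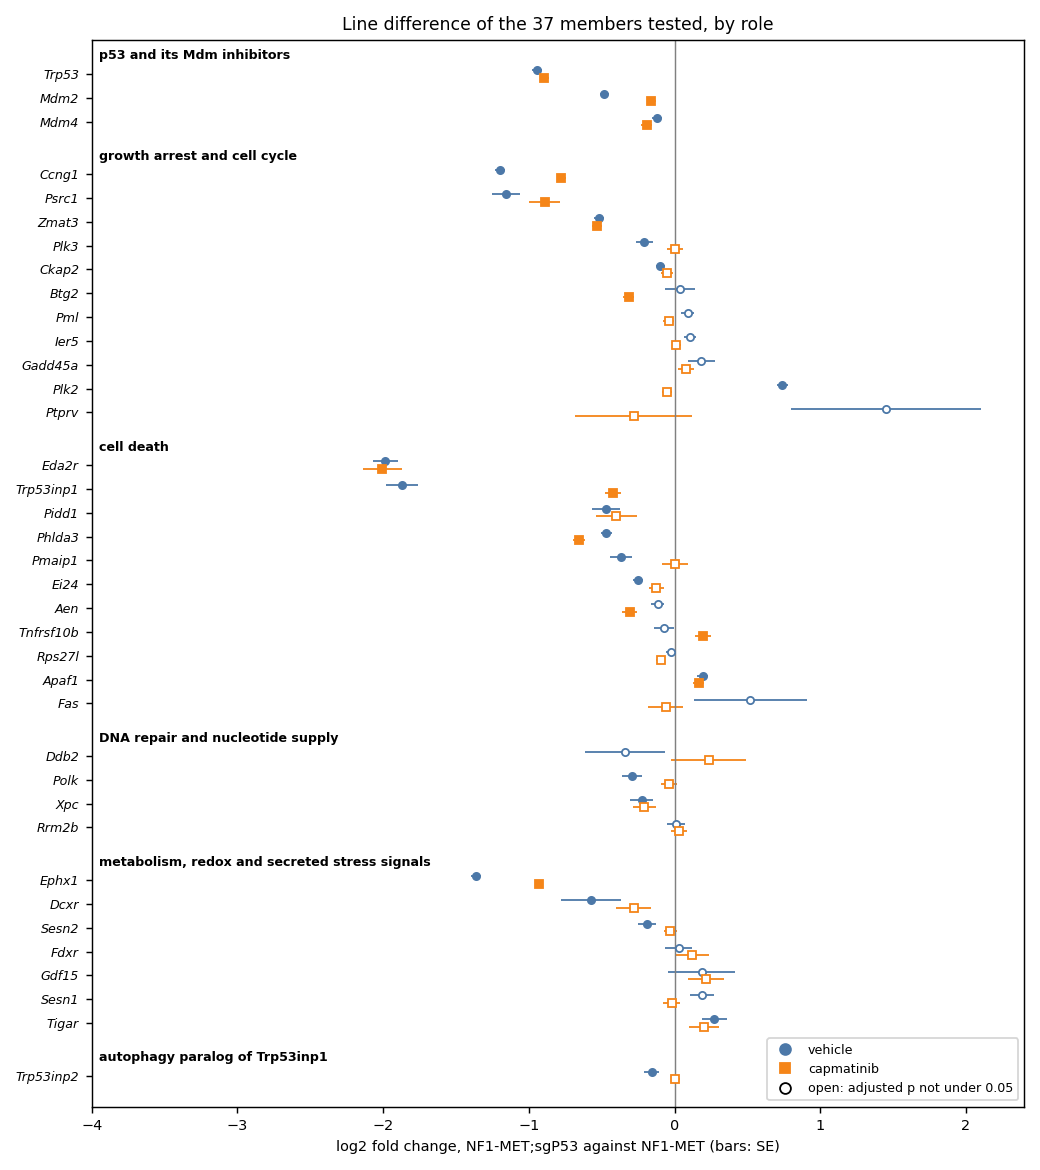
Log2 fold change of NF1-MET;sgP53 against NF1-MET cells for the 37 members tested, grouped by role, with circles for vehicle, squares for capmatinib, bars for the SE (2 libraries per group) and open symbols where the adjusted p was not under 0.05. *Eda2r* lies near -2 under both treatments, whereas *Trp53inp1* moves from -1.87 to -0.42 and *Plk2* from 0.74 to -0.052.

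In capmatinib, 12 of the 37 members were lower in NF1-MET;sgP53 than in NF1-MET cells, 2 were higher, and 23 passed in neither direction. Over all 14481 genes tested, 6.34% were lower and 5.94% were higher. The members' median log2 fold change was -0.063, beside -0.0010 for all genes. It turned to 0.057 with library totals and was -0.13 without NF1-MET;sgP53 capmatinib replicate 2. By role, 3 of 3 genes of the p53 and Mdm group were lower, 4 of 11 growth arrest genes, 4 of 11 cell death genes and 1 of 7 metabolic and secreted genes, and 0 of 4 repair genes passed the test by edgeR or by DESeq2. Of the repair genes, 1 had an unadjusted edgeR p under 0.05, *Xpc* at a log2 difference of -0.21 (adjusted p = 0.0954), and *Polk*, *Rrm2b* and *Ddb2* stood at -0.039, 0.029 and 0.23. With library totals, which moved the median of all genes by 0.11, 7 members were lower and neither rise was called, against 0.891% lower and 3.71% higher among all genes. Those 7 were *Trp53*, *Ccng1*, *Zmat3*, *Psrc1*, *Eda2r*, *Phlda3* and *Ephx1*. Markers differed between the lines in capmatinib too. The summed Schwann list was at 5551 to 5556 CPM in NF1-MET and 5292 to 5384 CPM in NF1-MET;sgP53. The list of other cell types was at 445 to 449 and 469 to 474 CPM. Mean levels of some single markers are given below, and the part of the markers in this line difference was not tested.

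Most of the members that passed in capmatinib are described above. *Btg2*, an antiproliferative gene that recruits the mRNA deadenylase, was at 6.83 and 6.39 CPM for NF1-MET given vehicle, 90.5 and 90.5 given capmatinib, 7.22 and 6.58 for NF1-MET;sgP53 given vehicle and 75.8 and 69.7 given capmatinib. The lines overlapped in vehicle and stood apart in capmatinib, where the log2 difference was -0.31 ± 0.037 (edgeR adjusted p = 8.96e-06). *Aen*, a nuclease of apoptotic cells, was at 55.6 and 61.4 CPM for NF1-MET given vehicle, 46.0 and 41.0 given capmatinib, 56.0 and 53.7 for NF1-MET;sgP53 given vehicle and 35.1 and 34.8 given capmatinib. In capmatinib its line difference was -0.31 ± 0.053 (edgeR adjusted p = 0.000557). Neither call was kept with library totals. *Apaf1* was higher by 0.16 ± 0.037 and *Tnfrsf10b*, a death receptor for TRAIL, by 0.19 ± 0.055, and neither was called with library totals or by DESeq2. *Tnfrsf10b* was also not called without NF1-MET capmatinib replicate 1 (0.17) or NF1-MET;sgP53 capmatinib replicate 2 (0.14).

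The comparisons of the lines in vehicle and in capmatinib share no library. In both, 10 members were lower: *Trp53*, *Mdm2*, *Mdm4*, *Ccng1*, *Zmat3*, *Psrc1*, *Eda2r*, *Phlda3*, *Trp53inp1* and *Ephx1*. Of all genes, 503 (3.48%) were lower in both. *Apaf1* was higher in both (3.09% of all genes), 10 members passed as lower in vehicle and not in capmatinib (8.54% of all genes), and *Btg2* and *Aen* passed as lower in capmatinib and not in vehicle (2.495% of all genes). Passing in 1 comparison and not in the other is no test that the differences were unequal, and of these 12 members *Btg2* passed such a test, described below as the interaction. Of the 12 members with an exact decamer in a promoter window, 6 were lower in vehicle and 4 in capmatinib, and 0 were higher in either by edgeR or DESeq2 (2, *Ier5* and *Sesn1*, at an unadjusted edgeR p under 0.05 in vehicle). Of the 17 with a window and no exact decamer, 10 were lower and 3 higher in vehicle, and 6 were lower and 1 higher in capmatinib. Of the 9 with no window, 4 were lower in vehicle, and 2 were lower and 1 higher in capmatinib. Of all genes, 12.3% were lower in vehicle and 6.34% in capmatinib. *Ccng1*, with a pair of decamers, was among the members lower in both, and *Rps27l*, with the other adjacent pair at 1 mismatch, passed in neither.

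**Figure D3:**
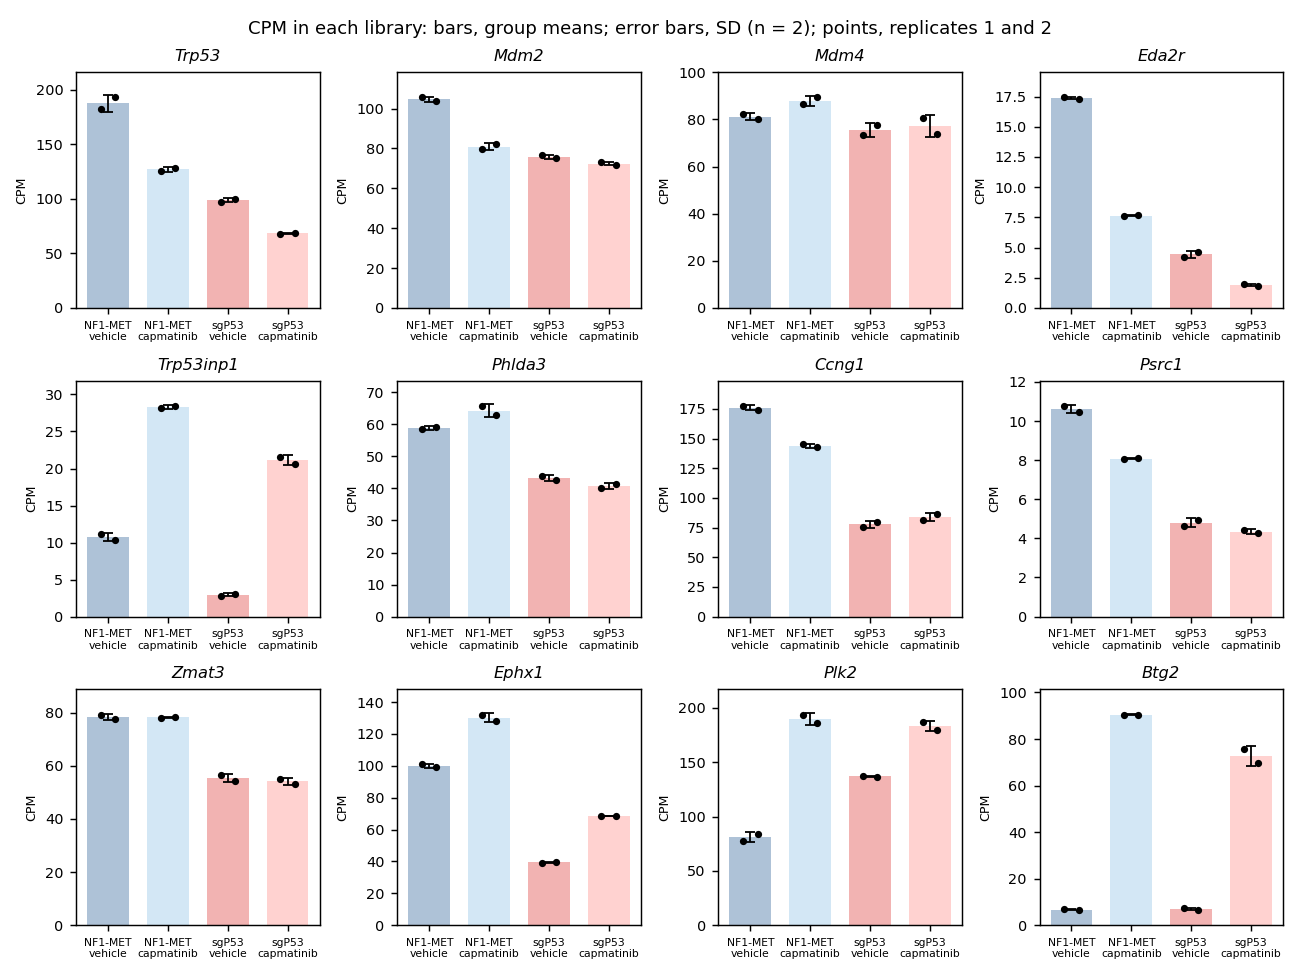
Level of 12 members in CPM in each of the 4 groups, with bars for the mean, error bars for the SD and points for the 2 replicates. *Eda2r* falls from 17.4 and 17.3 CPM in NF1-MET with vehicle to 1.96 and 1.85 CPM in capmatinib-treated NF1-MET;sgP53 cells, while *Btg2* is at or below 7.22 CPM in every vehicle library and at or above 69.7 CPM in every capmatinib library.

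The second question was how MET inhibition moved the set in each line. In NF1-MET cells 16 members rose with capmatinib (43.2%) and 14 fell (37.8%), and 7 passed in neither direction. Of all 14496 genes tested there, 35.5% rose and 34.7% fell. With library totals, which shifted the median of all genes by -0.18, 14 members rose and 19 fell, against 24.2% and 44.0% of all genes. In NF1-MET;sgP53 cells 16 members rose (43.2%), 11 fell (29.7%) and 10 passed in neither direction. There 34.2% of all 14497 genes rose and 33.4% fell. The falls of the members lay near the shares of all genes in both lines. Whether the members' shares differed from those of all genes was not tested. The members' median log2 response was -0.013 for the first line and 0.083 for the second, beside 0.0020 and 0.0049 for all genes. The second turned to -0.039 with library totals and was 0.0065 without NF1-MET;sgP53 vehicle replicate 1 and 0.15 without NF1-MET;sgP53 vehicle replicate 2. The 2 comparisons share no library. *Pdgfrb*, counted among the markers of other cell types, was also higher in all 4 capmatinib libraries. Schwann lineage markers moved as well: mean levels in vehicle and capmatinib were 152 and 26.4 CPM in the parental line and 99.6 and 24.4 CPM in the line with the guide for *Sox2*, 18.4 and 2.84 and then 21.5 and 3.76 for *Gap43*, 65.0 and 16.2 and then 50.4 and 18.4 for *Sox9*, and 16.1 and 73.9 and then 18.9 and 67.4 for *Egr2*. The part of these markers in the responses was not tested.

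*Trp53* fell by a log2 change of -0.58 ± 0.030 in NF1-MET (edgeR adjusted p = 1.50e-17) and -0.53 ± 0.034 in NF1-MET;sgP53 (edgeR adjusted p = 5.51e-12). *Mdm2* fell in NF1-MET (-0.39 ± 0.031, edgeR adjusted p = 8.56e-13) and did not pass in NF1-MET;sgP53 (-0.069 ± 0.033, edgeR adjusted p = 0.0719). *Mdm4* was 0.10 ± 0.032 higher in NF1-MET, but this became -0.087 with library totals and was not called by DESeq2 or without NF1-MET vehicle replicate 2 (0.082) or NF1-MET capmatinib replicate 2 (0.074). In NF1-MET;sgP53 its change was 0.027 ± 0.040.

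*Btg2* showed the largest response of the set in both lines, with log2 changes of 3.76 ± 0.054 in NF1-MET cells and 3.40 ± 0.061 in those with the guide (edgeR adjusted p = 9.34e-33 and 5.43e-22). *Gadd45a*, which binds PCNA and p21 in growth arrest, was at 7.58 and 7.27 CPM for NF1-MET given vehicle, 23.4 and 24.4 given capmatinib, 8.18 and 8.85 for NF1-MET;sgP53 given vehicle and 24.9 and 25.6 given capmatinib. All capmatinib libraries lay above all vehicle libraries, with changes of 1.67 ± 0.075 and 1.56 ± 0.073. An exon of *E230016M11Rik* covers part of *Gadd45a*, over 19.1% of its exon length. *Plk2* rose by 1.21 ± 0.033 in NF1-MET and by 0.42 ± 0.033 in NF1-MET;sgP53, and *Ier5*, an early growth response gene, by 0.79 ± 0.031 and 0.70 ± 0.041. *Ptprv*, a phosphatase with few counts, rose in NF1-MET (2.505 ± 0.57) and stood at 0.77 ± 0.47 in NF1-MET;sgP53. *Ckap2*, a microtubule protein of mitosis, fell in both lines (-0.61 ± 0.036 and -0.57 ± 0.036). *Psrc1* and *Plk3* fell in NF1-MET (-0.41 ± 0.090 and -0.13 ± 0.054) and stood at -0.15 and 0.083 in NF1-MET;sgP53. The fall of *Plk3* was not called by DESeq2, without the count filter, with the stricter filter, with all 8 libraries in 1 model, or with any of its 4 libraries left out (-0.14 to -0.11). *Pml*, the organizer of nuclear bodies, fell in NF1-MET;sgP53 (-0.21 ± 0.038) and stood at -0.075 in NF1-MET, and *Zmat3* did not pass in either line (-0.020 and -0.033), although with library totals it was called lower in NF1-MET (-0.21).

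Among the cell death genes, *Fas*, the death receptor, was at 0.579 and 0.351 CPM for NF1-MET given vehicle, 5.02 and 5.57 given capmatinib, 0.495 and 0.819 for NF1-MET;sgP53 given vehicle and 4.94 and 5.26 given capmatinib. It rose in both lines, by 3.51 ± 0.22 and 2.92 ± 0.21 on the log2 scale (edgeR adjusted p = 1.84e-15 and 3.07e-11). *Trp53inp1* rose by 1.38 ± 0.067 in NF1-MET cells and 2.82 ± 0.094 in those with the guide (edgeR adjusted p = 2.17e-18 and 4.27e-17). *Eda2r* fell alike in size, by -1.20 ± 0.080 and -1.22 ± 0.16. The other falls in both lines were those of *Pmaip1* (-1.08 ± 0.080 and -0.71 ± 0.088), *Pidd1* (-0.99 ± 0.11 and -0.93 ± 0.11), *Aen* (-0.46 ± 0.049 and -0.65 ± 0.042), *Rps27l* (-0.34 ± 0.034 and -0.42 ± 0.037) and *Ei24* (-0.24 ± 0.041 and -0.12 ± 0.039). *Ei24* was not called in NF1-MET;sgP53 by DESeq2 or without capmatinib replicate 1 (-0.081). *Phlda3* was 0.11 ± 0.038 higher in NF1-MET, but this became -0.075 with library totals and was not called by DESeq2 or without NF1-MET capmatinib replicate 1 (0.078). *Tnfrsf10b* rose in NF1-MET;sgP53 (0.21 ± 0.059), a call lost with library totals (0.087) and without vehicle replicate 1 (0.14) or capmatinib replicate 2 (0.15), and stood at -0.055 in NF1-MET. *Apaf1* did not pass in either line (-0.013 and -0.044).

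Of the metabolic and secreted genes, *Sesn1* and *Sesn2*, the sestrins that restrain mTORC1, rose in both lines. *Sesn1* was at 9.42 and 10.2 CPM for NF1-MET given vehicle, 22.2 and 21.7 given capmatinib, 11.6 and 11.1 for NF1-MET;sgP53 given vehicle and 22.0 and 21.3 given capmatinib. *Sesn2* was at 21.5 and 22.4 CPM, 41.9 and 42.96 CPM, 19.4 and 19.7 CPM, and 41.6 and 41.6 CPM in the same order of groups. Treated libraries lay above untreated ones throughout, with log2 changes of 1.14 ± 0.072 and 0.93 ± 0.071 for *Sesn1* and of 0.93 ± 0.052 and 1.09 ± 0.052 for *Sesn2*. *Gdf15*, a secreted stress hormone of the TGF-beta family, was at 1.68 and 1.18 CPM for NF1-MET given vehicle, 4.66 and 4.43 given capmatinib, 1.72 and 1.57 for NF1-MET;sgP53 given vehicle and 5.05 and 5.46 given capmatinib. *Gdf15* rose in both lines (1.66 ± 0.18 and 1.68 ± 0.15), as did *Dcxr* (1.41 ± 0.15 and 1.70 ± 0.17) and *Ephx1* (0.36 ± 0.030 and 0.79 ± 0.038). *Fdxr*, the mitochondrial ferredoxin reductase, fell in both (-0.77 ± 0.11 and -0.68 ± 0.10). *Tigar* fell in NF1-MET;sgP53 (-0.28 ± 0.092), which was not called by DESeq2 or without capmatinib replicate 2 (-0.18), and stood at -0.21 in NF1-MET.

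*Trp53inp2* was at 28.1 and 27.4 CPM for NF1-MET given vehicle, 162 and 158.9 given capmatinib, 25.4 and 25.0 for NF1-MET;sgP53 given vehicle and 163 and 158.8 given capmatinib. The treated groups of the 2 lines overlapped, and the log2 changes were 2.52 ± 0.035 and 2.67 ± 0.038 (edgeR adjusted p = 2.40e-33 and 1.23e-23). Among the repair genes, *Rrm2b* rose in both lines (0.40 ± 0.059 and 0.42 ± 0.062), *Polk* fell in NF1-MET (-0.25 ± 0.058) and stood at 0.0065 in NF1-MET;sgP53, and *Xpc* passed in neither (0.16 and 0.18). *Ddb2*, a damage sensor for ultraviolet lesions, rose in NF1-MET;sgP53 (0.80 ± 0.28), but stood at 0.38 without capmatinib replicate 2 and was not called there, without vehicle replicate 2 (0.70) or by DESeq2.

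The third question was whether the lines responded differently, tested as the response in NF1-MET;sgP53 minus that in NF1-MET over all 8 libraries. The response was higher in NF1-MET;sgP53 for 4 members and lower for 3, and 30 passed in neither direction, where 3.85% of all 14497 genes were higher and 5.86% were lower. With library totals 4 were higher and 1 was lower, against 1.32% and 0.848% of all genes. The 4 became 7 without NF1-MET;sgP53 vehicle replicate 2, and the 3 became 1 without NF1-MET;sgP53 vehicle replicate 1 or without NF1-MET;sgP53 capmatinib replicate 2. Of the members that passed, *Trp53inp1* had the largest difference, 1.43 ± 0.12 (edgeR adjusted p = 5.29e-09): it rose in both lines, and further in NF1-MET;sgP53, from a lower start. *Plk2* differed by -0.81 ± 0.049 (edgeR adjusted p = 2.18e-11), rising less in NF1-MET;sgP53 from a higher start. *Ptprv*, with few counts, stood at -1.75 ± 0.75 and did not pass. *Ephx1* rose further in NF1-MET;sgP53, by 0.41 ± 0.046 (edgeR adjusted p = 8.08e-07).

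*Ccng1* differed by 0.40 ± 0.048 (edgeR adjusted p = 2.15e-06). It fell in NF1-MET (-0.31 ± 0.028) and was 0.11 ± 0.037 higher with drug in NF1-MET;sgP53, a value that became -0.0096 with library totals and was not called by DESeq2 or without vehicle replicate 1 (0.079) or capmatinib replicate 2 (0.062). *Mdm2* differed by 0.30 ± 0.045 (edgeR adjusted p = 4.45e-05), with the fall seen in NF1-MET smaller in NF1-MET;sgP53. The differences of *Trp53inp1*, *Ephx1*, *Ccng1*, *Mdm2* and *Plk2* kept their calls under every alternative. *Btg2* (-0.37 ± 0.095, edgeR adjusted p = 0.0119) was not called with library totals or without NF1-MET vehicle replicate 2 (-0.32), NF1-MET;sgP53 vehicle replicate 1 (-0.31) or NF1-MET;sgP53 capmatinib replicate 2 (-0.28). *Phlda3* (-0.21 ± 0.056, edgeR adjusted p = 0.0173) was not called with library totals, without *Gm42418*, by DESeq2, without the count filter or with 5 of the 8 libraries left out in turn. For *Trp53* and *Eda2r* the difference was 0.032 ± 0.047 and -0.041 ± 0.16, and neither passed.

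**Figure D4:**
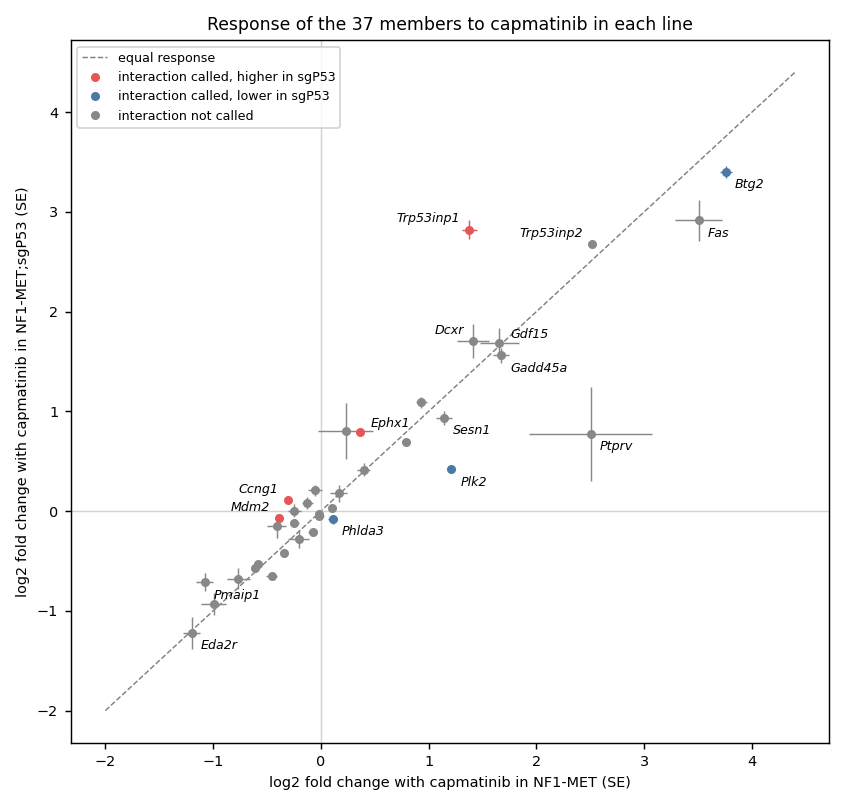
Log2 change with capmatinib in NF1-MET (horizontal) against NF1-MET;sgP53 (vertical) for the 37 members tested, with bars for the SE (2 libraries per group) and color for the members whose responses differed at an adjusted p under 0.05. *Trp53inp1* lies above the diagonal at 1.38 and 2.82, and *Plk2* below it at 1.21 and 0.42.

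A further list of 40 p53 targets, of which 39 were tested, was also compared. It too was chosen with earlier results of these data known, and its calls were not checked under the alternatives. In vehicle 8 were higher (20.5%, beside 10.9% of all genes) and 10 lower (25.6%, beside 12.3%) in NF1-MET;sgP53. In capmatinib 4 were higher (10.3%, beside 5.94% of all genes) and 6 lower (15.4%, beside 6.34%). *Cdkn1a*, which encodes the cyclin-dependent kinase inhibitor p21, was at 92.9 and 87.2 CPM for NF1-MET given vehicle, 54.4 and 55.0 given capmatinib, 29.5 and 27.1 for NF1-MET;sgP53 given vehicle and 13.4 and 14.8 given capmatinib. No groups overlapped, and the line difference was -1.69 ± 0.044 in vehicle and -1.95 ± 0.054 in capmatinib on the log2 scale (edgeR adjusted p = 3.16e-16 and 1.39e-13). It fell with capmatinib in both lines (-0.73 ± 0.037 and -1.001 ± 0.068), and the responses differed by -0.28 ± 0.074 (edgeR adjusted p = 0.0148). In vehicle *Trp53cor1*, a noncoding RNA next to *Cdkn1a* (-1.41 ± 0.41, at a mean of 0.728 CPM or less), and *Igfbp3*, an IGF-binding protein (-0.97 ± 0.025), were lower. *Tap1*, a peptide transporter (1.01 ± 0.21), and *Dram1*, a lysosomal regulator of autophagy (0.94 ± 0.14), were higher. In capmatinib *Gls2* (-0.91 ± 0.27) and *Trp53cor1* (-0.87 ± 0.26) were lower, and *Tap1* (0.73 ± 0.14) and *Steap3* (0.36 ± 0.11) were higher. *Bax*, the pore-forming apoptosis gene, did not pass between the lines (-0.12 and -0.062) and fell with capmatinib in both (-0.43 and -0.38). *Bbc3*, which encodes PUMA, passed in none of the 5 comparisons, with log2 differences of -0.11 and -0.28 between the lines and changes of 0.18 and 0.0085 with capmatinib.

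With capmatinib, 19 of these 39 rose and 14 fell in NF1-MET, and 20 rose and 15 fell in NF1-MET;sgP53. The falls, 35.9% and 38.5% of the list, lay near the 34.7% and 33.4% of all genes, and the rises were 48.7% and 51.3% of the list, where 35.5% and 34.2% of all genes rose. *Igfbp3* was at 604 and 585 CPM for NF1-MET given vehicle, 23.0 and 24.9 given capmatinib, 312 and 305 for NF1-MET;sgP53 given vehicle and 25.7 and 25.1 given capmatinib. It fell by -4.64 ± 0.033 and -3.60 ± 0.037, and the responses differed by 1.03 ± 0.050 (edgeR adjusted p = 2.76e-13). *Thbs1*, a secreted inhibitor of vessel growth, rose in both lines (2.09 and 1.94). *Tgfa* fell in both (-2.03 and -2.15) from a mean of 0.319 CPM or less, and *Dram1* (1.80 and 1.15) and *Trp53cor1* (1.117 and 1.65) rose in both. The responses differed for 12 of the 39, 4 higher (10.3%, beside 3.85% of all genes) and 8 lower (20.5%, beside 5.86%) in NF1-MET;sgP53, among them *Bid* (-0.87 ± 0.10), *Dram1* (-0.66 ± 0.16), *Bcl6* (0.52 ± 0.12) and *Pvt1* (-0.37 ± 0.12).

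A list of 25 regulators that act upstream of p53 was also compared. Its calls were likewise not checked under the alternatives. In vehicle 3 of 23 tested (13.04%, beside 12.3% of all genes) were lower, *Kmt5a* (-0.16 ± 0.029), *Trp53bp2* (-0.16 ± 0.048) and *Ep300* (-0.13 ± 0.030), and 0 were higher by edgeR, with 1, *Rpl11* (0.064), higher at an unadjusted p under 0.05. In capmatinib *Cdkn2a* (0.34 ± 0.092), *Cop1* (0.15 ± 0.042) and *Rpl5* (0.12 ± 0.036) were higher and *Hipk2* (-0.16 ± 0.048) was lower, which is 12.5% and 4.17% of the 24 tested, beside 5.94% and 6.34% of all genes. *Cdkn2a*, the locus of ARF, the inhibitor of MDM2, had 267 to 431 counts in each of the 8 libraries. The study describes a deletion of this locus in the NF1-MET line, which these counts do not resolve. With capmatinib 5 of 24 rose (20.8%) and 13 fell (54.2%) in NF1-MET, where 35.5% of all genes rose and 34.7% fell. In NF1-MET;sgP53 6 rose (25.0%) and 10 fell (41.7%), where 34.2% of all genes rose and 33.4% fell. Both lines had falls of the checkpoint kinases *Chek1* (-0.91 and -1.03), *Atm* (-0.77 and -0.77) and *Chek2* (-0.71 and -0.54), and of *Kmt5a* (-0.76 and -0.65) and *Wrap53* (-0.57 and -0.64). The responses differed for *Cdkn2a* (0.59 ± 0.15), *Rpl5* (0.17 ± 0.049), *Hipk2* (-0.27 ± 0.077) and *Atr* (-0.23 ± 0.070).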

How the data were processed

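RNA-seq libraries of the parental line and the line with the guide (2 replicates in each of 4 groups) were analysed from the table of raw gene counts deposited by the authors. The submitters' processing notes name bcl2fastq 1.9.0, FastQC 0.11.7, Trim Galore 0.4.2, STAR 2.5.2b and build mm10, and the strand setting of the counting is not given in the sources used here. A gene was tested if 2 or more of the 8 libraries held 10 counts or more and 2 or more of those compared were above 0.

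Each comparison was fitted in edgeR 4.0.16 (R 4.3.3) with TMM factors and the quasi-likelihood F-test. P-values were adjusted by Benjamini-Hochberg over all genes tested, with a threshold of 0.05. The SE of a log2 fold change is its size over the square root of F. Levels are CPM with TMM factors over the 8 libraries. Exons came from GENCODE release M21 and promoter windows from RefSeq. Alternatives were other scalings, filters, DESeq2 1.42.0, a replicate block, 1 model for all libraries and left-out libraries. Calls of single genes were checked under them for the members only.

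Named with per-library values were *Trp53*, *Mdm2*, *Mdm4* and, in each of 5 comparisons, up to 10 called members by size of change with at least 1 CPM in the higher group. Some genes of the pathway and marker lists are not reported here. Members and lists were chosen with earlier results of these data known. Replicates are wells of 1 line, so p-values measure the spread between these samples.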

Additional observations from a re-analysis of the deposited data

Results flagged for a closer look

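For 7 members the response to capmatinib differed between the lines by the interaction test in edgeR, 4 higher and 3 lower in NF1-MET;sgP53, where 3.85% of all 14497 genes were higher and 5.86% lower. As the log2 response in NF1-MET;sgP53 minus that in NF1-MET, *Trp53inp1* stood at 1.43, *Ephx1* at 0.41, *Ccng1* at 0.40 and *Mdm2* at 0.30. *Plk2* stood at -0.81, *Btg2* at -0.37 and *Phlda3* at -0.21. The last 2 were not called under some alternatives. With 2 libraries per group, no group was large enough to look for a library far from the others.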

How the results depend on the processing

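Scaling by library totals moved the median of the members to -0.10 between the lines in vehicle, 0.057 between them in capmatinib, -0.20 for capmatinib in NF1-MET and -0.039 for capmatinib in NF1-MET;sgP53, while the median of all genes moved to 0.060, 0.11, -0.18 and -0.12. With that scaling 13 members were lower in vehicle, 7 were lower (0.891% of all genes) and 0 were higher (3.71%) in capmatinib (4 higher at an unadjusted edgeR p under 0.05), and 1 was lower in the interaction (0.848%). It turned the capmatinib response of *Mdm4* (-0.087) and *Phlda3* (-0.075) in NF1-MET, and that of *Ccng1* (-0.0096) in the other line. Over all genes in vehicle it gave 8.84% higher and 5.13% lower. The DESeq2 Wald test called 13 members lower in vehicle (7.59% of all genes) and 0 higher (3.01%) in capmatinib (2 at an unadjusted p under 0.05), and no filter (2.53% of all genes) and 1 model for all 8 libraries (6.18%) each called 1 higher in capmatinib. The cause was not tested.

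Leaving out each library in turn gave 14 to 15 members lower in vehicle (8.86% to 11.0% of all genes), a median of -0.131 to -0.0607 and 1 to 2 members higher (4.46% to 5.73% of all genes) between the lines in capmatinib, a median of 0.0065 to 0.147 for capmatinib in NF1-MET;sgP53, and 4 to 7 higher (2.60% to 4.92% of all genes) and 1 to 4 lower (3.51% to 5.09%) in the interaction. The 7 arose without NF1-MET;sgP53 vehicle replicate 2, and the 1 without NF1-MET;sgP53 vehicle replicate 1 or capmatinib replicate 2. A group left with 1 library was assumed to vary like the others. With the replicate number as a block, 21 members were lower and 4 higher in vehicle (14.4% and 13.2% of all genes), 12 and 2 in capmatinib (6.44% and 5.84%), 14 and 16 for the drug response of the parental line (34.6% and 35.3%), 11 and 16 for that of the guide line (33.5% and 34.5%), and 3 and 5 in the interaction (6.24% and 4.27%). Deviations of same-numbered libraries correlated at -0.054 to 0.10, so the numbers were not shown to pair the samples. Low counts limit *Ptprv*, *Ddb2*, *Fas*, *Gdf15* and *Dcxr*.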
